A study of Mus musculus with 66 samples.

Results

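Mouse testes of days 6, 8 and 10 after birth were compared with testes of day 0 and of day 56, to find genes that stood higher or lower in this early window than at both ends of a developmental time course. The samples were taken by their labelled day: 6 of days 6 to 10, 2 of day 0 and 2 of day 56 on each of 3 array types (here A, B and C). These are 30 of the 66 arrays of the study, which covers 11 days from birth to day 56 with 2 numbered samples a day. All groups were total testis RNA of BL/6-129 mice isolated with TRIzol reagent, and the labels name no treatment and no altered allele. Whether a numbered sample came from 1 animal or a pool is not stated, so the p-values measure the spread between these samples, which may be technical.

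The window lies at the start of the first wave of spermatogenesis. At birth the seminiferous cords hold resting gonocytes and dividing, immature Sertoli cells, and the tissue between them holds fetal Leydig cells, which make androgen. After birth the gonocytes resume division and become spermatogonia; retinoic acid then drives spermatogonia to differentiate, with Stra8 and Kit among the genes they switch on, and the first of them go on into meiosis. Sertoli cells stop dividing and later seal the blood-testis barrier, fetal Leydig cells decline and adult Leydig cells follow. In the adult, spermatids and spermatocytes make up most of the testis.

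Each gene was represented by its brightest probe set, and 13472 genes were tested. Signals are scaled array intensities, which do not compare levels between genes, and changes are differences of log2(signal + 16) ± SE, a scale that understates the change of dim genes. The mean of every array, without 2% of the probe sets at each end, lay between 125.02 and 125.1. Precision is limited by the number of arrays. Between the 2 samples of a day, signals correlated at 0.873 to 0.958 on days 6, 8 and 10, at 0.780 to 0.889 on day 0, the less alike pair, and at 0.916 to 0.955 on day 56. Markers of Sertoli, germ, Leydig and peritubular cells passed the signal filter. The Leydig marker Insl3 was dim, between 29.1 and 56.1 in these samples, and the Sertoli marker Amh read 17.8 and 14.4 on day 56. The spermatid gene Prm1 ran from 4.3 to 759 on days 6 to 10. Of the other tissues checked, the epididymal markers Lcn5 and Adam7 stayed below the filter. The measured adipocyte, skeletal muscle and erythroid markers passed it. The muscle gene Ckm read 127.6 and 239 on day 0, from 148.8 to 198.7 on days 6 to 10, and 69.6 and 129.4 on day 56. The hemoglobin gene Hba-a1 read 8277 and 4595 on day 0, from 1723 to 3224 on days 6 to 10 and 572 and 425 on day 56; the adipocyte gene Adipoq read from 23.1 to 65.9 on days 6 to 10 and 201 and 216 on day 56. The part of these changes in the results was not tested.

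Fewer genes separated the early window from the newborn testis than from the adult one, and fewer still stood apart from both. Calls required at least a 2-fold change and an adjusted p under 0.05. Against day 0, 278 genes were higher (2.06% of those tested) and 233 lower (1.73%). Against day 56, 2859 were higher (21.2%) and 1972 lower (14.6%). The balance of directions turned with the scaling: higher genes were 54.4% of those called against day 0 and 59.2% of those called against day 56, but 44.2% and 46.1% with arrays scaled to their median. Higher than both ends were 94 genes (0.698%), called peak genes here, and lower than both were 16 (0.119%), called dip genes. Both comparisons use the same samples of days 6 to 10. The peak genes were 33.8% of the genes higher than day 0 and 3.29% of those higher than day 56, and the dip genes were 6.87% and 0.811% of the genes lower than each end. In 88 of the 94 peak genes all 6 samples of days 6 to 10 read above all 4 samples of the ends, which held for 5.45% of all genes; in 15 of the 16 dip genes all 6 read below, which held for 1.57%. The genes were chosen on these same samples, so this separation describes them and supports nothing further. The ends themselves often differed: day 56 was called higher than day 0 in 2 peak genes, Stra8 and Cldn11, and lower in 9, and higher in 5 dip genes and lower in 1, Cyp11a1, where 15.9% of all genes were higher and 21.1% lower. The peak genes nearest to the 2-fold limit were Parg, Rragd and Srsf1, whose smaller log2 changes were 1.00, 1.00 and 1.01, and Shq1, Rras2 and Nr0b1 lay just under the limit at 1.00, 1.00 and 0.99 after rounding. Plbd1, Iqce and Sgpp2 were the dip genes nearest to it, with smaller changes of -1.03, -1.03 and -1.06, and Penk, Cyp17a1 and Smad6 lay outside at -0.93, -0.92 and -0.90.

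**Figure D1:**
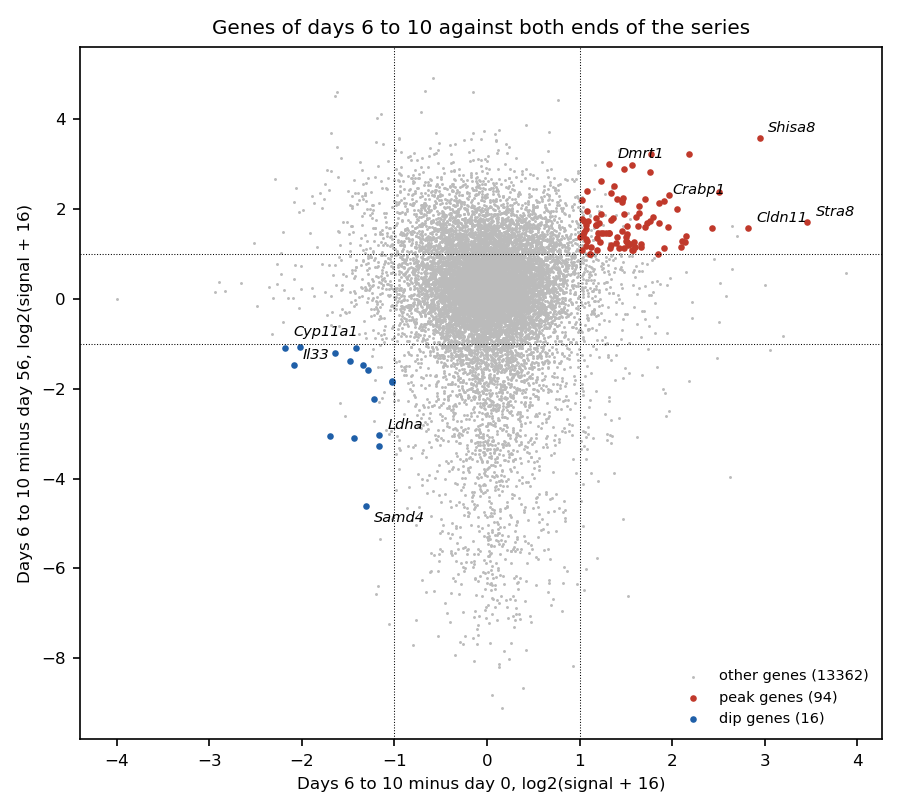
Each point is 1 of the 13472 genes, placed by its log2 change of days 6 to 10 against day 0 (horizontal axis) and against day 56 (vertical axis); dotted lines mark 2-fold. The 94 peak genes (red) lie at the upper right and the 16 dip genes (blue) at the lower left, while the grey cloud reaches much farther down the vertical axis than to either side.

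Within the window the peak genes tended to read highest on day 10. The highest mean of the time course fell on day 10 in 61 of the 94 peak genes, on day 8 in 14, on day 14 in 13, on day 6 in 5 and on day 18 in 1. Relative to its mean over days 6 to 10, the median peak gene stood at -1.46 (log2) on day 0, -0.93 on day 3, -0.25 on day 6, 0.03 on day 8 and 0.20 on day 10. It then stood at -0.02 on day 14, -0.67 on day 18, -1.12 on day 20 and -1.60 on day 30. Day 10 read above day 6 in 85 of the 94 peak genes (90.4%), against 48.7% of all genes. Few single genes passed a test of this: day 10 was called higher than day 6 in 4 peak genes, where 0.26% of all genes were, and lower in no dip gene, where 0.0668% were. These were Stra8 (1.41, adjusted p = 0.0324), the tight junction gene Cldn11 (1.27, adjusted p = 0.0287), the cysteine dioxygenase gene Cdo1 (1.18, adjusted p = 0.0376) and the galactolipid synthesis gene Ugt8a (2.60, adjusted p = 0.0194), named after their values were seen. A moderated F-test over the 3 days called none of the 94 peak and none of the 16 dip genes after adjustment in limma (20 of all genes, 0.148%); at an unadjusted p under 0.05 it took 20 peak and 6 dip genes, where 4.62% of all genes passed.

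**Figure D2:**
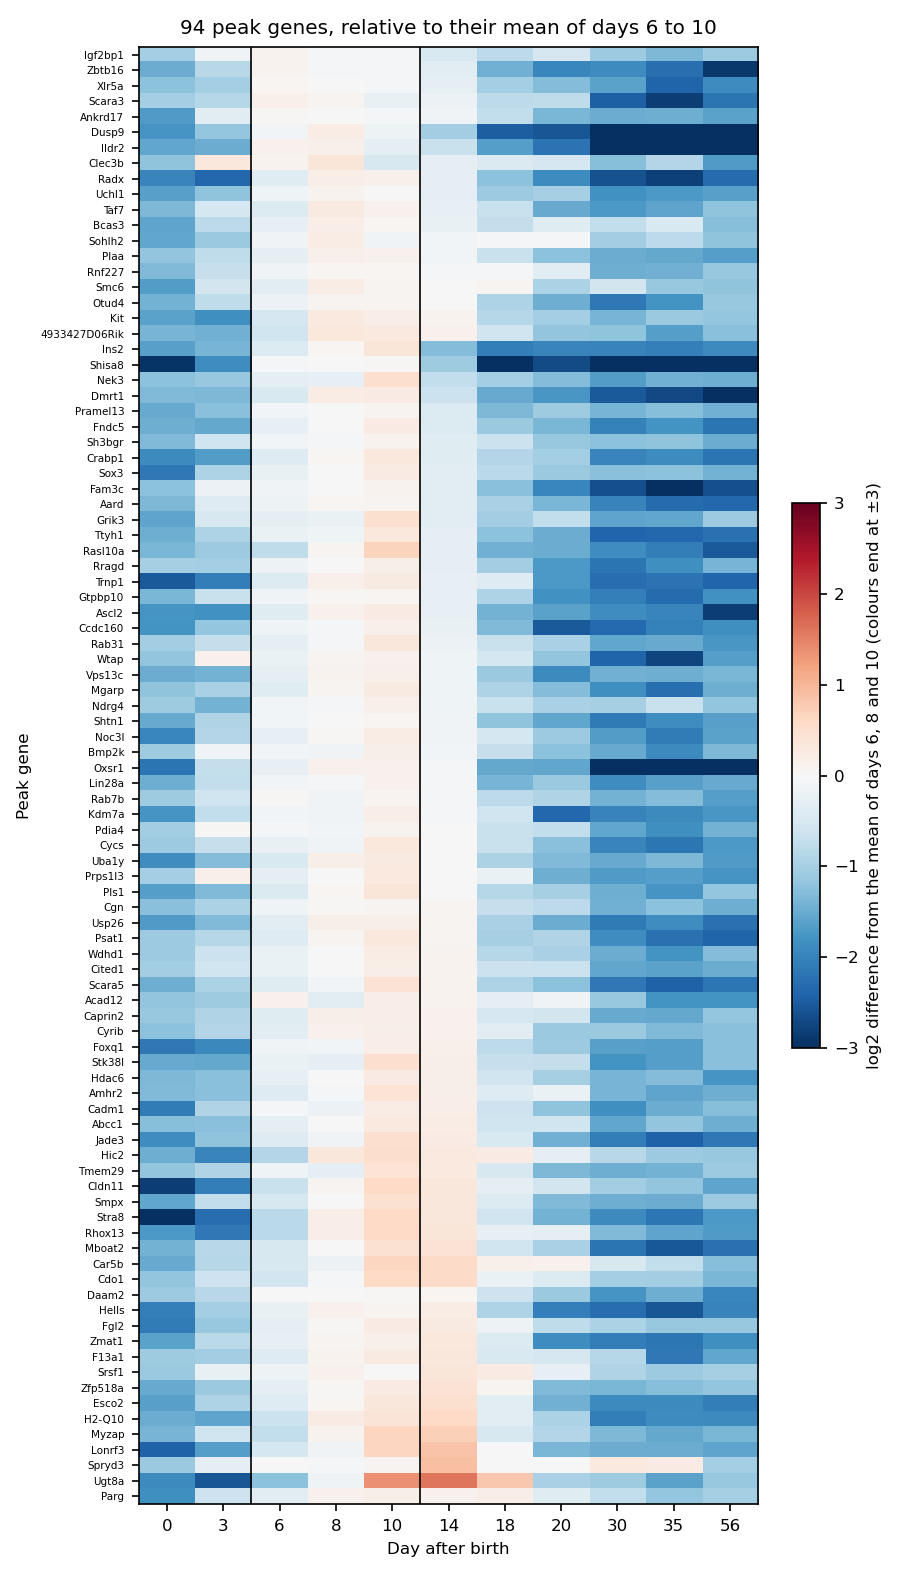
Rows are the 94 peak genes and columns the 11 days; colour gives the log2 difference of the day mean from the mean of days 6, 8 and 10, and black lines bound these 3 days. Rows are ordered by the day of the highest mean, and most are blue on days 0 and 3, pale from day 6 to day 14 and blue again from day 18.

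Taken 1 day at a time, with 2 samples a day in place of 6, the genes higher than both ends numbered 21 on day 6, 73 on day 8 and 165 on day 10, and the genes lower than both numbered 7, 16 and 26. The 94 peak genes supplied 21, 56 and 83 of these higher genes, and 21 of them (0.156% of all genes) were called on each of the 3 days, as were 2 dip genes (0.0148%), Il33 and Vash2. Day 14 had 196 higher and 48 lower genes, day 18 had 64 and 62, and day 20 had 95 and 59. Of the higher genes of day 14, 65 were peak genes, and of those of day 20 only 5 were. On days 3, 30 and 35 limma called no gene against both ends. At unadjusted p under 0.05 and the same fold, 34 genes were higher and 47 lower on day 3. Day 30 had 66 and 49, and day 35 had 67 and 51. By the same limits day 6 had 76 higher and 47 lower genes, day 8 had 160 and 58, and day 10 had 246 and 76. On this scale day 6 had no more lower genes than days 3, 30 and 35.

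**Figure D3:**
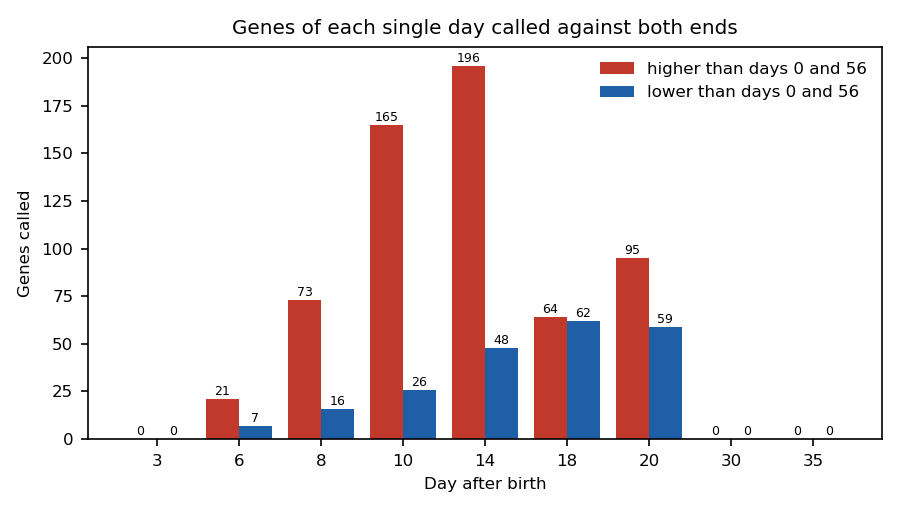
Bars count the genes called higher (red) or lower (blue) than both day 0 and day 56 on each single day, from 0 on days 3, 30 and 35 to 196 higher genes on day 14. The counts of higher genes rise from 21 on day 6 to 165 on day 10.

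Genes of differentiating spermatogonia held the largest share of peak genes among the 26 gene lists. Of 23 measured members 8 were peak genes (34.8%): Stra8, Kit, Sohlh2, Dmrt1, Uba1y, Usp26, Crabp1 and Rhox13. On this list 12 members were higher than day 0 and none lower, 11 were higher than day 56 and 6 lower, and the median changes were 1.32 and 1.15, against 0.02 and 0.25 over all genes. Over all genes, 0.698% were peak genes, 2.06% were higher and 1.73% lower than day 0, and 21.2% were higher and 14.6% lower than day 56; the counts of every list below stand beside these shares. In whole testes, fewer cells of a type and less RNA per cell cannot be told apart. The summed signal of the list was 2949 and 4234 on day 0, from 5546 to 10093 with a median of 8801 in the window, and 9350 and 9531 on day 56. The list was written with earlier results of these data known.

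Stra8, which retinoic acid induces and which germ cells need to enter meiosis, had the largest change from day 0 of all peak genes. Its signal was 11.8 and 5.0 on day 0, ran from 109.5 through a median of 292.8 to 432.9 on days 6 to 10, and was 67.2 and 62.9 on day 56. Every sample of the window lay above both ends, and the adult samples lay above the newborn ones. The log2 changes were 3.46 ± 0.22 (adjusted p = 1.3e-07) against day 0 and 1.72 ± 0.22 (adjusted p = 5.21e-06) against day 56. The signal was still 352.4 and 294.5 on day 14 and had come down to between 39.5 and 64.6 on days 30 and 35.

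The promoter of Stra8 is printed because this gene led the peak and retinoic acid receptors bind repeats of AGGTCA. In RefSeq (GRCm38.p6) the window from 250 bases before to 50 after its start is chr6:34920698-34920997, plus strand. Capitals mark AGGTCA, at -194 and -38, where the former is also the SF-1 site AAGGTCA, and the E2F motif TTGGCGC at -114, counted from the start.
Stra8: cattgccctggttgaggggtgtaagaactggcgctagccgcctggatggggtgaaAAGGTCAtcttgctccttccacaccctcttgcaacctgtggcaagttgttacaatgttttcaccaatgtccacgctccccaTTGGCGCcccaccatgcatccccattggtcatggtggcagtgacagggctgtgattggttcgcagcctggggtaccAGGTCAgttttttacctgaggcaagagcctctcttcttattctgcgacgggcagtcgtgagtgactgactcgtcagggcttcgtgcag
AGGTCA on either strand was held by 14 of the 71 peak genes with a window (19.7%) and by 15.6% of the 10769 genes matched. A match is a description of these letters and not a measured site.

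Kit, the receptor that differentiating spermatogonia need to survive and divide, read 28.1 and 57.6 on day 0 and 85.9 and 43.3 on day 56. Its signals of days 6 to 10 ran from 95.2 through a median of 176.5 to 220.2, above all 4 end samples, though the lowest stood close to the brighter adult sample. The changes were 1.60 ± 0.27 (adjusted p = 0.00176) and 1.15 ± 0.27 (adjusted p = 0.00191). Kit was no longer called against both ends when arrays were scaled to their median or quantile normalized, with a pseudocount of 64, or without the second sample of day 56. Its ligand gene Kitl, which Sertoli cells make, was higher than day 56 (2.55, adjusted p = 2.67e-05) but did not pass against day 0 (0.79, adjusted p = 0.274), so it was no peak gene.

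Crabp1, which binds retinoic acid in the cytoplasm, read 54.5 and 33.6 on day 0, from 131.5 to 324.2 with a median of 199.4 on days 6 to 10, and 39.3 and 26.6 on day 56. The groups did not overlap, and the changes were 1.91 ± 0.24 (adjusted p = 0.000114) and 2.19 ± 0.24 (adjusted p = 6.44e-07). Of the 21 measured genes of retinoid metabolism and signalling, Stra8 and Crabp1 were the peak genes (9.52%). The retinol-binding protein gene Rbp4 was the other member higher than day 0 (1.36), none was lower, and the median change from day 0 was -0.06. Higher than day 56 were 7 members and lower 2, where 21.2% and 14.6% of all genes were; the higher ones included Stra6, which takes up retinol, at 2.01 and Rdh10, which makes retinal, at 2.35.

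Usp26, Rhox13 and Uba1y, which germ cells express, lie on the sex chromosomes. Usp26, an X-linked ubiquitin protease gene, read 205.7 and 237.2 on day 0, from 515.1 to 988.2 with a median of 784.6 in the window, and 142.5 and 155.1 on day 56. It changed by 1.70 ± 0.23 (adjusted p = 0.000246) and 2.23 ± 0.23 (adjusted p = 3.41e-07), with no overlap. Rhox13, an X-linked homeobox gene, read 273.4 and 631.7 on day 0, from 777.9 to 2202 with a median of 1632 in the window, and 437.7 and 414.4 on day 56. Its newborn samples differed from each other by more than its newborn and adult means did, and the window still lay above all 4, with changes of 1.73 ± 0.25 (adjusted p = 0.000426) and 1.70 ± 0.25 (adjusted p = 2.13e-05). Uba1y, the Y-linked copy of the ubiquitin-activating enzyme gene, read 52.7 and 46.6, then from 156.3 to 273.6 with a median of 254.7, then 47.5 and 70.1. It changed by 1.86 ± 0.16 (adjusted p = 4.24e-06) and 1.69 ± 0.16 (adjusted p = 1.52e-07), with no overlap; its X-linked copy is similar in sequence, and cross-hybridization was not tested.

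Sohlh2, a transcription factor gene that spermatogonia need to differentiate, was singled out after its values were seen. It read 21.0 and 33.4 on day 0, from 53.9 to 175.2 with a median of 122.3 in the window, and 25.9 and 53.2 on day 56. The lowest sample of the window and the brighter adult sample nearly met. The changes were 1.55 ± 0.34 (adjusted p = 0.00954) and 1.22 ± 0.34 (adjusted p = 0.00552). Sohlh2 was called in 17 of 21 other fits, and not without the first sample of day 0, of day 10 or of day 56 or with a pseudocount of 64.

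**Figure D4:**
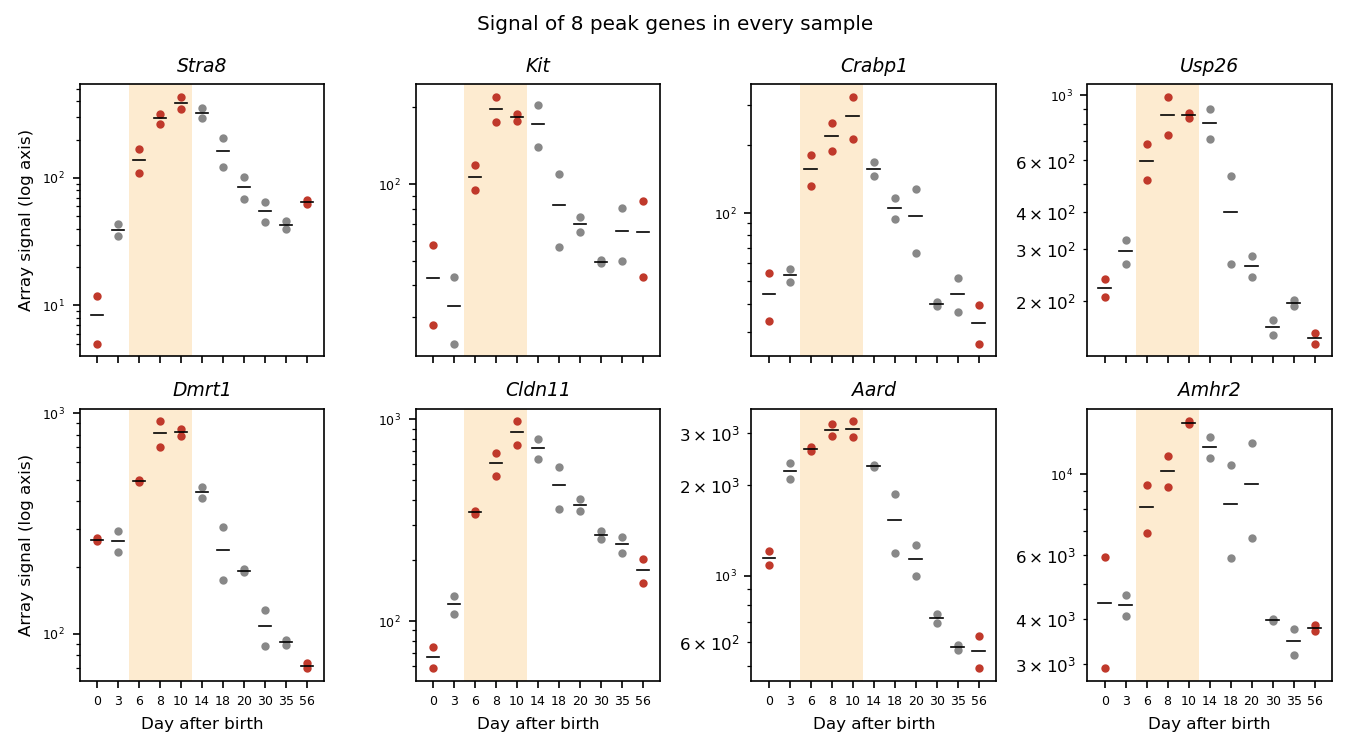
Points are the signals of 8 peak genes in each of the 22 samples on a log axis, bars are the means of the 2 samples of a day, and shading marks days 6 to 10. Coloured points entered the comparison with days 0 and 56, and grey points are the other days. Stra8 starts at 11.8 and 5.0 and reaches 432.9 in the window, whereas Dmrt1 falls from 919.3 in the window to 69.8 in the adult.

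Other members of this list differed from 1 end alone, or from the ends in opposite directions. Ddx4, a helicase gene of all germ cells, was higher than day 0 (1.91, adjusted p = 0.000145) and lower than day 56 (-2.01, adjusted p = 2.45e-06). Dmrtb1, which controls the choice between mitosis and meiosis, went from 2.6 and 12.2 on day 0 through a median of 153.8 to 1988 and 2418 on day 56. Dazl, a germ cell RNA-binding protein gene, read from 443.3 to 1627 in the window, above all 4 end samples. Its second sample read above the first on every day except days 30 and 35 (443.3 and 1386 on day 6), which the fit counted as spread. Dazl was higher than day 0 (2.64, adjusted p = 0.0351), but against day 56 its change of 1.63 ± 0.71 did not pass (adjusted p = 0.064). Dnmt3b, a DNA methyltransferase gene, missed on the other side (1.02, adjusted p = 0.0543 against day 0). None of the 19 measured genes of early meiotic prophase was a peak gene: 5 were higher than day 0, among them Sycp1 (2.48) and Stag3 (1.84) of the chromosome axes, and these 5 were also lower than day 56, as were 4 more.

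Among 20 genes of gonocytes and undifferentiated spermatogonia, Zbtb16 and Lin28a were peak genes (10%). Of this list 4 were higher than day 0 and 1 lower, Etv5 (-1.42). Against day 56, 6 were higher and 1 lower, Id4 (-1.06). The median changes were 0.08 and 0.72. Zbtb16, a repressor that keeps spermatogonial stem cells, read 283.7 and 85.1 on day 0, from 349.7 to 632.6 with a median of 454.1 in the window, and 69.6 and 34.1 on day 56. It changed by 1.48 ± 0.42 (adjusted p = 0.0449) and 2.89 ± 0.42 (adjusted p = 1.69e-05). Its change from day 0 lay at the edge of the threshold, and 11 of 21 other fits no longer called it against both ends, among them those without any 1 sample of days 6, 8 or 10 or the second of day 0. A second Zbtb16 probe set gave 1.74 against day 0 and 1.94 against day 56. Lin28a, an RNA-binding protein gene of early germ cells, read 13.1 and 49.1, then from 79.8 to 120.9 with a median of 113.1, then 26.2 and 25.2. It changed by 1.46 ± 0.32 (adjusted p = 0.0106) and 1.52 ± 0.32 (adjusted p = 0.000661), and its call was lost with a pseudocount of 64 and without the first sample of day 0. Another Lin28a probe set, which took its place under a stricter signal filter, gave -0.41 against day 0. Gfra1, the receptor of the growth factor Gdnf, had a change of -0.55 from day 0 (adjusted p = 0.325).

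Among 28 measured genes of immature Sertoli cells, 4 were peak genes (14.3%): Dmrt1, Amhr2, Cited1 and Aard. Of this list 4 were higher than day 0 and 5 lower, 16 were higher than day 56 and none lower, and the medians were -0.33 and 1.10. The keratin genes Krt8 (-2.32) and Krt18 (-1.41) were among the members lower than day 0. Amh itself, the hormone of the fetal Sertoli cell, read 72.3 and 157.6 on day 0 and had a median of 21.6 in the window, a change of -1.43 ± 0.43 that did not pass (adjusted p = 0.057).

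Dmrt1, a transcription factor gene of Sertoli cells and spermatogonia that is on both lists, read 262.1 and 270.9 on day 0, from 487.9 to 919.3 with a median of 744.5 in the window, and 69.8 and 73.5 on day 56. The 3 groups were fully separate, the adult being the lowest. The changes were 1.32 ± 0.19 (adjusted p = 0.000412) and 3.0 ± 0.19 (adjusted p = 7.51e-10). Aard, an alanine and arginine rich domain gene of the developing testis, read 1204 and 1084, then from 2605 to 3273 with a median of 2911, then 627.4 and 490.7. It changed by 1.34 ± 0.17 (adjusted p = 0.000142) and 2.36 ± 0.17 (adjusted p = 4.33e-09), again with no overlap.

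Amhr2, the receptor of anti-Müllerian hormone, read 2929 and 5935 on day 0, from 6876 to 13983 with a median of 10301 in the window, and 3840 and 3698 on day 56. The window lay above all 4 end samples, by 1.32 ± 0.27 (adjusted p = 0.00614) and 1.46 ± 0.27 (adjusted p = 0.000172), but the newborn samples lay far apart and the call was lost without the first of them, as it was for the mean of its 4 probe sets. Cited1, an X-linked transcriptional coactivator gene, read 632.7 and 361.6, then from 876.8 to 1213 with a median of 1005, then 334.7 and 365.6. Its changes were 1.05 ± 0.23 (adjusted p = 0.0117) and 1.49 ± 0.23 (adjusted p = 4.04e-05). Scaling to the median, a pseudocount of 64 or leaving out the second sample of day 0 ended the call. Another Cited1 probe set gave 0.33 against day 0 and 0.74 against day 56.

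Cldn11, the claudin of the Sertoli cell tight junction, followed Stra8 and Shisa8 in the size of its change from day 0. Its signal was 74.6 and 58.5 on day 0, ran from 341.3 through a median of 605.5 to 978.5 in the window, and was 154.9 and 203.6 on day 56. All 3 groups were separate, with the newborn lowest. The changes were 2.82 ± 0.20 (adjusted p = 3.17e-07) and 1.58 ± 0.20 (adjusted p = 3.27e-06). Cgn, which encodes cingulin of the cytoplasmic face of tight junctions, read 345.7 and 326.0, then from 685.2 to 942.5 with a median of 827.8, then 336.1 and 247.3. It changed by 1.26 ± 0.20 (adjusted p = 0.000875) and 1.47 ± 0.20 (adjusted p = 8.1e-06). The other Cgn probe sets gave 0.41 and 0.32 against day 0, and 1.82 and -0.05 against day 56. Cldn11 and Cgn were the peak genes among 35 measured junction genes (5.71%). Of these junction genes 2 were higher and 2 lower than day 0, and 13 higher and 1 lower than day 56. The gap junction gene Gja1 (1.94) and the tight junction genes Tjp1 (1.10) and Ocln (1.33) were higher than day 56 without a called change from day 0.

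Of 53 measured genes of DNA methylation, chromatin and germline silencing, Hells and Hdac6 were peak genes (3.77%), 7 were higher than day 0 and none lower, and 19 were higher than day 56 and 1 lower. Hells, a remodeller needed for DNA methylation of repeats, read 101.2 and 107.0 on day 0, from 330.0 to 633.1 with a median of 493.9 in the window, and 109.7 and 104.4 on day 56. The 4 end samples read close together, and the window lay well above both, by 2.05 ± 0.38 (adjusted p = 0.00354) and 2.01 ± 0.38 (adjusted p = 0.000258). Hdac6, an X-linked cytoplasmic deacetylase gene, read 454.9 and 502.4, then from 996.1 to 1504 with a median of 1247, then 313.9 and 394.5. It changed by 1.34 ± 0.15 (adjusted p = 4.08e-05) and 1.77 ± 0.15 (adjusted p = 2.42e-08).

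Radx and Esco2, the latter singled out after its values were seen, act at replication. Radx, an X-linked gene whose product acts at replication forks, read 58.8 and 75.5 on day 0, from 230.4 to 381.0 with a median of 322.1 in the window, and 49.2 and 48.8 on day 56, with changes of 1.97 ± 0.27 and 2.32 ± 0.27 (adjusted p = 0.000251 and 1.44e-06). Esco2, which acetylates cohesin during replication, changed by 1.64 ± 0.31 and 2.08 ± 0.31 (adjusted p = 0.00336 and 1.72e-05). In both genes the window read above all 4 end samples, and both were called in all 21 other fits. Another, dimmer Esco2 probe set gave 0.47 against day 0 and 0.73 against day 56. None of the 86 measured genes of the mitotic cell cycle list was a peak gene, where 0.698% of all genes were. Of that list 3 were higher than day 0 (Orc1, Bub1 and Cenpf) and 1 lower, while 25 were higher than day 56, among them Mcm2 (2.49) and Mki67 (1.75), and 6 lower.

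The E2F motifs TTCCCGC and TTGGCGC, which E2F factors of the cell cycle bind, were searched in the same RefSeq windows. On either strand, TTCCCGC was held by 11 of the 71 peak genes with a window (15.5%) against 8.87% of all genes matched, and TTGGCGC by 8 (11.3%) against 4.74%. Of the 14 dip genes with a window, 4 held TTCCCGC (28.6%) and none TTGGCGC. No test was made of these shares. The windows of Hells (chr19:38930740-38931039, plus strand) and Cldn11 (chr3:31149670-31149969, plus strand) are shown as examples of a chromatin gene and a Sertoli cell gene, chosen after the hits were known; capitals mark TTCCCGC at -61 and TTGGCGC at -34.
Hells: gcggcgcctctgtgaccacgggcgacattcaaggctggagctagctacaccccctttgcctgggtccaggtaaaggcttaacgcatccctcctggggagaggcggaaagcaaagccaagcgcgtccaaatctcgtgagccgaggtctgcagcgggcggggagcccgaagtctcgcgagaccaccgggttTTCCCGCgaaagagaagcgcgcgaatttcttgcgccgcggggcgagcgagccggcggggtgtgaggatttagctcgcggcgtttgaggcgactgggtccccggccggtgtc
Cldn11: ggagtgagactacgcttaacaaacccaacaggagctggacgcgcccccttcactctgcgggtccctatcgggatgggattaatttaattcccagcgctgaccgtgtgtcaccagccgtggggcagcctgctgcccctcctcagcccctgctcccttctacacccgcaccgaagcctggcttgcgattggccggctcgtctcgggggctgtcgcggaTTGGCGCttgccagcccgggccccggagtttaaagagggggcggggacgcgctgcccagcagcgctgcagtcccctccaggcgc
The CCAAT box was about as frequent in peak genes as in all genes (42.3% and 42.7%), as was TTTGAA of the cell cycle homology region (15.5% and 14.8%). The SF-1 site AAGGTCA, which contains AGGTCA, was in 6 peak genes (8.45%, against 4.31%), and AAGGCCA in 2 (2.82%, against 6.75%).

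The X chromosome carried 15 of the 94 peak genes (16%) and 414 of the 13472 genes tested (3.07%). Put the other way, 3.62% of X-linked genes were peak genes, against 0.599% of 13029 autosomal genes. Of X-linked genes 7.73% were higher than day 0, against 1.88% of autosomal genes, and 47.3% higher than day 56, against 20.4%. None of the 16 dip genes was X-linked. The X-linked peak genes were Radx, Jade3, Ccdc160, Dusp9, Usp26, Rhox13, Zmat1, Lonrf3, Sox3, Hdac6, Car5b, Xlr5a, Tmem29, Smpx and Cited1. Their median changes were 1.70 and 1.77, and those of the 78 autosomal peak genes were 1.42 and 1.53. Both sets were chosen for changes of at least 2-fold, so these medians do not compare X-linked with autosomal genes. The X-linked peak genes numbered 24 of 129 with signals below 32 raised to that floor. They were 7 of 21 when each day had to pass on its own.

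Jade3, a gene of histone acetyltransferase complexes, was among the X-linked genes with the largest changes. It read 173.6 and 161.7 on day 0, from 482.6 to 1015 with a median of 604.1 in the window, and 158.0 and 114.4 on day 56, and changed by 1.85 ± 0.22 (adjusted p = 6.92e-05) and 2.14 ± 0.22 (adjusted p = 3.13e-07). Dusp9, a phosphatase gene that dampens MAP kinases, read 50.6 and 51.5, then from 173.1 to 263.0 with a median of 207.5, then 8.4 and 8.2. It changed by 1.77 ± 0.37 (adjusted p = 0.00681) and 3.24 ± 0.37 (adjusted p = 8.34e-07), but it has 6 probe sets and their mean was not called. Ccdc160 read 265.9 and 145.4, then from 607.8 to 829.8 with a median of 726.4, then 199.2 and 181.9. Its call was lost without the second sample of day 0. Sox3, which spermatogonia need for their differentiation, rose from 35.1 and 42.7 to a median of 250.4 and stood at 64.7 and 86.8 on day 56 (2.14 ± 0.22 and 1.41 ± 0.22, adjusted p = 2.34e-05 and 3.9e-05); it was named after its values were seen.

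The largest peak genes by the smaller of the 2 changes included several that are on none of the lists. Shisa8, a gene of the Shisa family of membrane proteins, led them: it read 18.9 and 76.3 on day 0, from 338.7 to 542.0 with a median of 417.6 in the window, and 16.9 and 24.9 on day 56. The groups lay far apart, by 2.95 ± 0.37 (adjusted p = 0.000114) and 3.58 ± 0.37 (adjusted p = 3.15e-07). Trnp1, a nuclear protein gene known from neural progenitors, read 4.2 and 9.6, then from 63.3 to 158.2 with a median of 118.5, then 8.3 and 9.5, with changes of 2.51 ± 0.37 (adjusted p = 0.000432) and 2.38 ± 0.37 (adjusted p = 3.27e-05). Both ends of Trnp1 were dim, so the changes understate it.

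Oxsr1, a kinase gene of the osmotic stress response, read 73.2 and 34.7 on day 0, from 176.4 to 392.1 with a median of 316.7 in the window, and 25 and 9.9 on day 56. It changed by 2.18 ± 0.44 (adjusted p = 0.00623) and 3.23 ± 0.44 (adjusted p = 8.85e-06). The other Oxsr1 probe sets gave -0.11 and 0.92 against day 0, and 0.50 and 1.27 against day 56, so they disagree on the peak. Kdm7a, a histone demethylase gene, read 501.7 and 198.7, then from 979.1 to 1404 with a median of 1086, then 350.7 and 297.6, with changes of 1.76 ± 0.36 (adjusted p = 0.0062) and 1.74 ± 0.36 (adjusted p = 0.000538). The calls of Oxsr1 and Kdm7a were both lost without the second sample of day 0.

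Of 25 measured imprinted and fetal growth genes, Ascl2 and Igf2bp1 were peak genes (8%), while 6 members were lower than day 0 and 16 higher than day 56. Ascl2, an imprinted transcription factor gene, read 83.2 and 180.2 on day 0, from 332.9 to 578.2 with a median of 492.6 in the window, and 108.6 and 19.8 on day 56. It changed by 1.76 ± 0.41 (adjusted p = 0.0152) and 2.83 ± 0.41 (adjusted p = 1.51e-05) and was not called without the first sample of day 0. Another Ascl2 probe set gave -0.001 against day 0 and 0.77 against day 56. Igf2bp1, an RNA-binding protein gene of fetal tissues, changed by 1.03 ± 0.27 (adjusted p = 0.0301) and 1.09 ± 0.27 (adjusted p = 0.00235), and 9 of 21 other fits no longer called it, among them those without the first sample of day 0 or either of day 10. The list members Igf2, a growth factor gene, Dlk1 and Mest did not peak. Igf2 was lower than day 0 (-1.38, adjusted p = 0.00384) and higher than day 56 (3.04, adjusted p = 3.21e-08). So were Dlk1 (-1.62 and 3.39) and Mest (-2.08 and 2.16).

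Fewer genes dipped than peaked. The lowest mean of the time course fell on day 6 in 3 of the 16 dip genes, on day 8 in 1 and on day 10 in 4. In the others it fell after the window, on day 14 in 3, on day 18 in 4 and on day 20 in 1. The one dip gene of the Leydig cell list was Cyp11a1, which encodes the enzyme of the first step of steroid synthesis. Cyp11a1 read 1316 and 749.7 on day 0, from 154.0 through a median of 210.5 to 268.8 on days 6 to 10, and 511.4 and 416.0 on day 56. All 6 samples of the window were below all 4 ends. The changes were -2.18 ± 0.25 (adjusted p = 4.95e-05) against day 0 and -1.10 ± 0.25 (adjusted p = 0.00121) against day 56, and the call was lost with a pseudocount of 64 and without the first sample of day 56. The mean fell lowest on day 18, with 204.7 and 131.1 already on day 14, and was between 504.3 and 562.0 in the samples of days 30 and 35.

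No other gene of the Leydig list was called lower than both ends. Cyp17a1, the lyase of androgen synthesis, read 580.4 and 391.6, then from 184.9 to 308.9, then 686.4 and 853.0, so that the window again lay below all 4 ends, but its change of -0.92 from day 0 stayed short of 2-fold (adjusted p = 0.0397). Hsd3b1 was lower than day 0 (-1.29, adjusted p = 0.0203) but read above day 56 (0.96), and Star, the cholesterol transporter, had changes of -1.03 (adjusted p = 0.173) and 0.73 (adjusted p = 0.16). Hsd3b6, an isoform of adult Leydig cells, had a change of -0.09 from day 0 (adjusted p = 0.915) and was lower than day 56 (-2.17, adjusted p = 5.72e-06). Hsd17b3 was lower than day 0 (-1.15, adjusted p = 0.0176) and had a change of -0.43 against day 56 (adjusted p = 0.196). Its window was not uniform: it read 310.9 and 142.6 on day 6 and 44.1 and 27.4 on day 10 (-2.16, adjusted p = 0.00622). Of 26 measured Leydig genes 5 were lower than day 0 and none higher, 7 were higher than day 56 and 4 lower, and the medians were -0.58 and 0.41. Over all genes 1.73% were lower than day 0, and 21.2% were higher and 14.6% lower than day 56. The summed signal of the list was 14277 and 13031 on day 0, from 7765 to 9112 in the window and 5878 and 6107 on day 56.

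Both RefSeq windows of Cyp11a1 are printed, since SF-1, the regulator of steroidogenic genes, binds AAGGTCA and AAGGCCA sites. They are chr9:57997774-57998073 and chr9:58014702-58015001, both on the plus strand. Neither window holds these letters on either strand, and capitals in the latter mark AGGTCA at -28.
Cyp11a1 window 1: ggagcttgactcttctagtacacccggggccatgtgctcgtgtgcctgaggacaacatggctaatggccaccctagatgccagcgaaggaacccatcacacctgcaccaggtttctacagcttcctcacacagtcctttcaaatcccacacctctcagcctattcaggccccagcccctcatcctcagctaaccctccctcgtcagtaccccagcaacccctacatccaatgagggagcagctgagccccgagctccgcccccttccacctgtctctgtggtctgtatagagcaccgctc
Cyp11a1 window 2: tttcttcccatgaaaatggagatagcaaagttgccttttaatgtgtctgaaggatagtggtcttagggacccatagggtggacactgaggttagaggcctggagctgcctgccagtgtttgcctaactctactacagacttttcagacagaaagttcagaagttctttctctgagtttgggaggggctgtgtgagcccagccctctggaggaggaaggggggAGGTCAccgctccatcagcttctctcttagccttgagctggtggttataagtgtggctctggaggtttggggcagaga
Among the 14 dip genes with a window, 2 held AAGGCCA (14.3%) and none AAGGTCA.

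Ldha, the lactate dehydrogenase subunit with which Sertoli cells supply lactate to germ cells, was the dip gene of the later Sertoli list, on which Cldn11 was the peak gene (4.35% of 23 each). It read 1006 and 569.9 on day 0, from 205.5 to 473.6 with a median of 344.3 in the window, and 2690 and 2920 on day 56. All 6 samples lay below both ends: -1.16 ± 0.23 (adjusted p = 0.00585) and -3.03 ± 0.23 (adjusted p = 9.2e-09). The call was lost without the first sample of day 0. Sgpp2, a sphingosine phosphate phosphatase gene, read 562.4 and 550.7, then from 102.7 to 175.1 with a median of 117.2, then 302.2 and 254.7. Its day pairs were close, and it changed by -2.02 ± 0.25 (adjusted p = 8.1e-05) and -1.06 ± 0.25 (adjusted p = 0.00153). It was not called without the first sample of day 56 or the second of day 6, or with a pseudocount of 64.

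Vwf, the von Willebrand factor gene of endothelium, read 97.1 and 98.6 on day 0, from 8.5 to 35 with a median of 21.4 in the window, and 76.5 and 61.3 on day 56. It changed by -1.64 ± 0.23 (adjusted p = 0.000346) and -1.21 ± 0.23 (adjusted p = 0.000297). It was the only dip gene of 17 measured endothelial genes: 3 were lower than day 0, and 4 were higher and 2 lower than day 56, where the shares over all genes were 1.73%, 21.2% and 14.6%. Cdh5, the cadherin of endothelial junctions, was lower than day 0 (-1.32) but higher than day 56 (2.32). Il33, an alarm cytokine gene of endothelium and other barrier cells, read 121.0 and 181.7, then from 7.6 to 34.2 with a median of 28.2, then 91.7 and 91.0, and changed by -2.08 ± 0.32 (adjusted p = 0.000581) and -1.47 ± 0.32 (adjusted p = 0.00083). Vwf and Il33 were dim in the window, so their changes understate the difference, and neither was called with a pseudocount of 64.

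Vash2, a vasohibin gene whose product trims tubulin, was the only dip gene called in all 21 other fits, against 21 of 94 peak genes. It read 179.2 and 311.5 on day 0, from 64.1 to 97.5 with a median of 75.1 in the window, and 741.4 and 814.3 on day 56, with changes of -1.44 ± 0.21 (adjusted p = 0.000422) and -3.09 ± 0.21 (adjusted p = 1.35e-09). Cyp46a1, which hydroxylates cholesterol, read 359.3 and 383.3, then from 61.5 to 211.2 with a median of 140.1, then 275.3 and 313.8, and changed by -1.41 ± 0.28 (adjusted p = 0.00507) and -1.09 ± 0.28 (adjusted p = 0.00316). It was not called without the first sample of day 10 or with a pseudocount of 64. The carboxypeptidase subunit gene Cpn1 went from 41.9 and 37.7 through a median of 6.6 to 51.6 and 54.2 (-1.29 ± 0.24 and -1.59 ± 0.24, adjusted p = 0.00394 and 3.05e-05). It was dim throughout and not called with a pseudocount of 64 or a floor of 32.

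The remaining named dip genes were Vwa3a (-1.70 and -3.04), Pnmal2 (-1.34 and -1.48), the adhesion receptor gene Adgrl3 (-1.49 and -1.37), Iqcm (-1.22 and -2.23), Iqce (-1.03 and -1.82) and Samd4 (-1.31 and -4.61). Their adjusted p-values against day 0 lay between 0.00624 and 0.0399. Of 21 other fits, Samd4 was called in 8, Iqcm in 9 and Adgrl3 in 14, and the call was lost in all 3 genes without either sample of day 10. Vwa3a was lost without the second sample of day 0, Pnmal2 without either, and Iqce without the first of day 0, the second of day 6 or the second of day 8, or with a pseudocount of 64. Another Samd4 probe set went the other way against day 56, at 2.56, so the probe sets of this gene disagree. Those of Iqce disagree as well, since another gave -0.04 against day 0 and 0.45 against day 56. Another Vwa3a probe set gave -0.72 and -1.92. Of 9 other probe sets of dip genes, 2 had both changes in the same direction and none had both at 2-fold. Of 77 other probe sets of peak genes, 58 had both in the same direction and 11 had both at 2-fold.

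**Figure D5:**
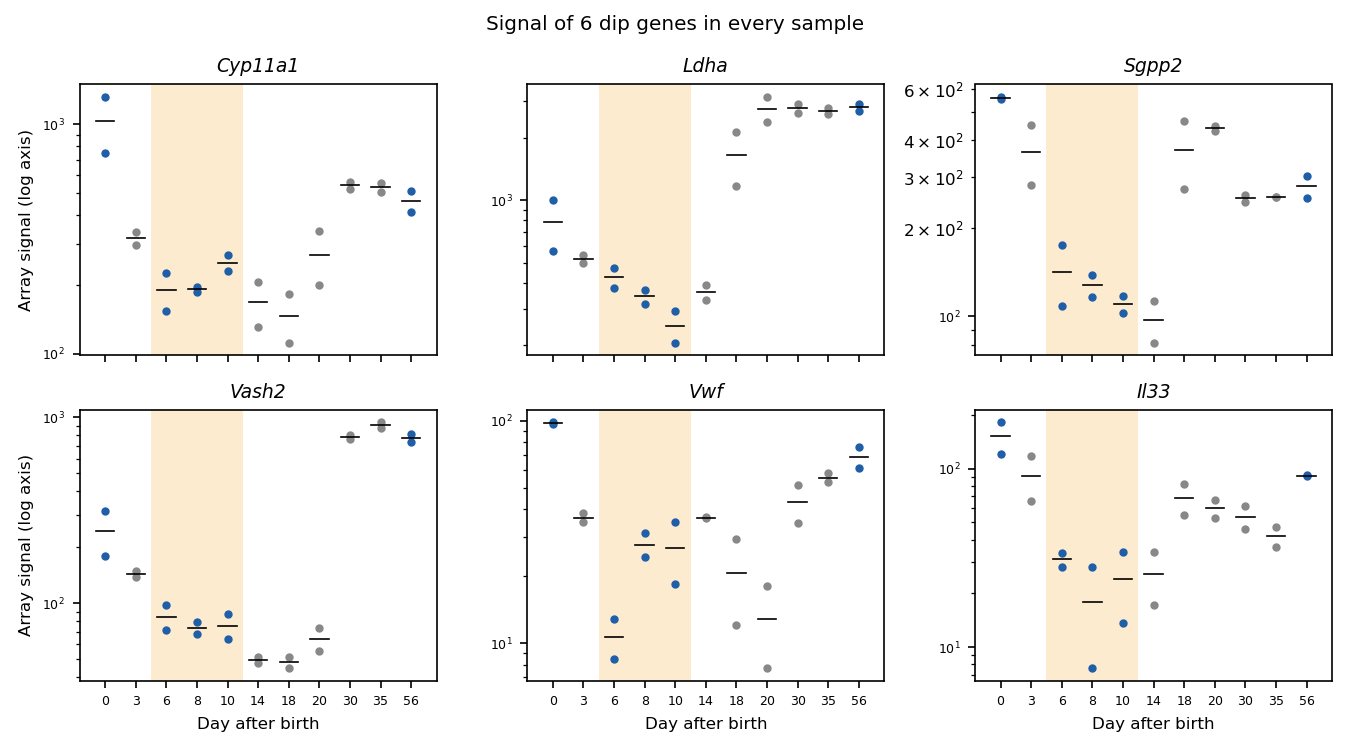
Points are the signals of 6 dip genes in each of the 22 samples on a log axis, bars are the means of the 2 samples of a day, and shading marks days 6 to 10. Blue points entered the comparison and grey points are the other days; Cyp11a1 drops from 1316 and 749.7 on day 0 to between 154.0 and 268.8 in the window, and Ldha rises to 2690 and 2920 on day 56.

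Days 14, 30 and 35, whose means were in neither contrast that chose the genes, gave a further comparison with samples of their own. Their arrays did enter the signal filter and the choice of the brightest probe set. The comparison concerns the later side of a peak or dip and not the change from day 0. Day 14 was higher than days 30 and 35 in 82 of the 94 peak genes (87.2%) and lower in none, where 18.6% of all genes were higher. Of the 2859 genes higher than day 56, 1815 were (63.5%). The median change of the peak genes was 1.68, with a range from 0.39 to 3.19, against 0.22 over all genes. Among the peak genes not called, Sohlh2 had a change of 0.82 (adjusted p = 0.0693) and Igf2bp1 of 0.77 (adjusted p = 0.0348), both short of 2-fold. Of the X-linked peak genes 14 of 15 were called. Day 14 was lower than days 30 and 35 in 11 of the 16 dip genes (68.8%) and higher in none, where 13% of all genes were lower; of the 1972 genes lower than day 56, 1500 were (76.1%). The dip genes not called were Il33 (-0.63), Cpn1 (-0.18), Vwf (-0.30), Cyp46a1 (0.45) and Plbd1 (-0.83). This comparison shares its estimate of the spread with the others.

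The lists of cholesterol biosynthesis, smooth muscle, extracellular matrix, macrophage, erythroid, adipocyte, skeletal muscle, epididymis, pachytene spermatocyte, spermatid, immediate-early and Wnt, Notch and Hedgehog genes held no peak and no dip gene. In the extracellular matrix list, 9 of 48 genes were lower than day 0 and 38 higher than day 56. All 28 spermatid genes were lower than day 56. Of the growth factor and hormone signalling list, Kit was the peak gene of 63 members (1.59%), and 33 were higher than day 56. Of 37 measured textbook testis genes, 7 were peak genes and 1 a dip gene, all described above. Not described are Tex101, Ccnd2, Inha, Inhbb, Fshr, Sox9, Wt1, Gata4, Ptgds, Col1a1, Acta2 and Sycp3. None of them was a peak or dip gene.

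Of the samples left out 1 at a time, those of day 0 moved the peak genes most. Without the first of them 59 of the 94 peak genes were called among 109, and without the second 62 among 110; 38 were called both times and 11 neither time, while all 94 kept a change above 0 from day 0. The dip genes numbered 26 without the first sample of day 0, 9 of them among the 16, and 7 of the 16 were called both times. Scaling the arrays to their median moved the all-gene median against day 56 from 0.25 to 0.01 and left 56 peak genes, 55 of them among the 94.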

How the data were processed

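Each of 22 samples was run on 3 oligonucleotide array types. The deposited values are signal intensities on a linear scale, 1 per probe set and array, which the authors scaled to a mean of 125, per the labels' description; the software that made them is not given in the sources used here, and detection calls were not used here. Of 36899 probe sets, 29131 named 1 gene. A probe set was kept if 2 or more arrays of its type read 50 or above (26941 were), and the probe set with the highest mean stood for its gene. Each array type was fitted separately in limma 3.58.1 (R 4.3.3) on log2(signal + 16), with 11 day means and a variance trend, so that all days share 1 estimate of the spread (11 residual degrees of freedom). Tests were two-sided, with p-values adjusted by Benjamini-Hochberg over all 13472 genes. The fitting code was tested on simulated data.

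The window, the members' rule and the gene lists were chosen with earlier results of these data known. The rule for named genes took the 14 peak and 14 dip genes with the largest smaller change whose samples did not overlap the ends. It also took up to 4 members per list and 37 measured textbook testis genes, of which not all are described. Other peak genes described at length are marked as singled out later, and further list members are given as examples. Promoter windows are RefSeq's (GRCm38.p6) and were matched by symbol for 71 of the 94 peak genes and 14 of the 16 dip genes.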

Additional observations from a re-analysis of the deposited data

How the results depend on the processing

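With a pseudocount of 64 in place of 16, 143 genes were higher and 152 lower than day 0, 1740 were higher than day 56, and 51 peak genes (50 of them among the 94) and 5 dip genes (all among the 16) were left. Scaling to the median left 56 peak genes. Without a fold limit there were 223 peak and 35 dip genes, with 454 genes higher and 374 lower than day 0 and 4385 higher than day 56. Requiring each of days 6, 8 and 10 to pass on its own left 21 and 2. The 2 comparisons were adjusted separately in the main call. Adjusting the larger of the 2 p-values of each gene instead left 63 peak and 12 dip genes, all among the 94 and the 16. The F-test among the 3 days called 13 of all genes without suffixed probe sets and 4 when fitted on days 0, 6, 8, 10 and 56 alone. Leaving out 1 sample of days 0, 6, 8, 10 or 56 at a time gave 78 to 110 peak genes, 14 to 26 dip genes and 6 to 29 genes in the F-test. In single genes, 3 changes reversed, each where another probe set came to stand for the gene: Lin28a against day 0 with a filter of 125 (-0.41), and Samd4 without suffixed probe sets (0.014 against day 0 and 2.56 against day 56). Of 2872 changes of named genes under these settings, 115 lost their call and 28 gained one. With the replicate block, 105 peak and 18 dip genes were called, which held all 94 and all 16. Same-numbered samples deviated together (correlation over 0.1) in 28, 34 and 23 of 55 pairs of days on types A, B and C. The median correlations were 0.104, 0.127 and 0.065, the lowest -0.206, -0.013 and -0.065, and the highest 0.547, 0.388 and 0.292. The labels do not say what a number marks, and the main fit did not use the numbers to pair samples. Whether same-numbered samples share an effect was not tested further. Low signal limits some genes: 5 peak and 2 dip genes had a mean signal under 100 even in their brighter group.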
